A study of Gossypium hirsutum with 9 samples.

Results

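The 133 probes described here carried more RNA signal in XinWX than in XinFLM on the day before flowering and again on the day after, and differed less between the lines on the day of flowering itself. XinWX is a lintless-fuzzless line of Upland cotton, whose seeds bear no fibers, and XinFLM is its near-isogenic linted-fuzzless partner, which forms lint but no fuzz. The study describes XinFLM as isolated from XinWX, from which earlier genetic work set it apart at a single locus for lint. Both lines were grown in the same field, with no treatment given, and ovules with any attached fibers were taken at -1, 0 and 1 DPA (days post anthesis, the opening of the flower). The study asked which transcripts differ between the lines while fibers initiate.

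A cotton fiber is a single elongated cell of the seed coat. Lint initials swell out of the ovule epidermis around anthesis and elongate quickly afterwards, while fuzz fibers start some days later and stay short. Work on other cotton lines has tied this step to MYB and HD-ZIP transcription factors, to plant hormones, and to sugar and lipid metabolism. Lint initiation falls in the window sampled, and XinWX forms no lint.

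Each of 9 arrays compared the lines directly at 1 stage, 3 arrays a stage. XinWX was labeled with Cy3 on replicates 1 and 3 and with Cy5 on replicate 2, the dye swap. The methods count 2 biological replicates and a dye swap among the 3, so that the SDs and p-values below may be technical in part. Across probes the ratios of replicates 1 and 2 correlated at r = 0.909, 0.840 and 0.803 at -1, 0 and 1 DPA. With replicate 3 they correlated at r = 0.465 to 0.649, so that replicates 1 and 2 may share their RNA. The median intensity of a channel ran from 694 to 1664 units, and both extremes were on replicate 3 of 1 DPA. In mean log2 intensity that array correlated with the 0 DPA arrays at r = 0.885 to 0.901 across probes, and with the other arrays of its own stage at only 0.781 to 0.828. The main counts and medians that include 1 DPA are also given without this array.

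The probes were chosen on the authors' normalized log2 ratios, turned to XinWX over XinFLM, in which 1 stands for a 2-fold difference. Of 29183 probes, 18150 had at least 400 units in 1 channel on every array. Among these the mean ratio over 3 arrays reached 1 in 442 probes at -1 DPA, in 90 at 0 DPA and in 473 at 1 DPA. It did so at all 3 stages in 28 probes, and in 136 at -1 and 1 DPA but not between. Leaving out 3 probes that the study had singled out gives the 133. In the opposite direction, higher in XinFLM at both outer stages, there were 43 probes, of which 22 were under the limit at 0 DPA. No gene name was paired with any of the 133 probes here, so that they are given by their probe IDs, no pathway could be counted among them, and the tissue could not be checked against markers of fiber or ovule.

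At -1 DPA the median mean ratio of the 133 probes was 1.37, a 2.58-fold higher signal in XinWX, and the highest was 3.29. At 0 DPA the median was 0.54, or 1.46-fold, and the values ran from -0.60 to just under the limit. At 1 DPA the median was 1.28, or 2.43-fold, and the highest 2.90. Without replicate 3 of 1 DPA the median there was 1.45, or 2.74-fold, and 127 of the 133 probes were at or over the limit. The median SD over 3 arrays was 0.18, 0.22 and 0.33 at the 3 stages. These values chose the probes and therefore carry no test. At anthesis the difference mostly shrank rather than turned round, as the mean ratio was below 0 in 10 probes and below 0.5 in 59. For 60 probes the ratio at 0 DPA was at least 1 lower, in log2, than its mean over the outer stages. The outer stages were alike in size, with a higher ratio at -1 DPA in 78 probes, and 20 probes at -1 DPA and 21 at 1 DPA were at least 4-fold higher in XinWX.

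The single arrays repeat the order of the stages. The median ratio was 1.33, 1.35 and 1.50 on the 3 arrays of -1 DPA. It was 0.59, 0.56 and 0.41 on those of 0 DPA. It was 1.39, 1.52 and 1.15 on those of 1 DPA, where replicate 3 was the lowest. The ratio was above 0 on all 6 arrays of -1 and 1 DPA for each of the 133 probes, against 13.1% of the probes with a ratio on every array. On all 3 arrays of 0 DPA it was below each of the 6 others for 93 probes, against 5.84% of the same probes. Both counts follow from the choice of the probes and are read no further. The limit itself divides a continuous range. At -1 DPA the nearest probe inside lay at 1.0001 and the nearest outside at 0.9994, at 0 DPA at 0.9992 and 1.0062, and at 1 DPA at 1.0042 and 0.9933. Within 0.1 of the limit lay 22, 5 and 29 of the 133 probes at -1, 0 and 1 DPA.

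**Figure D1:**
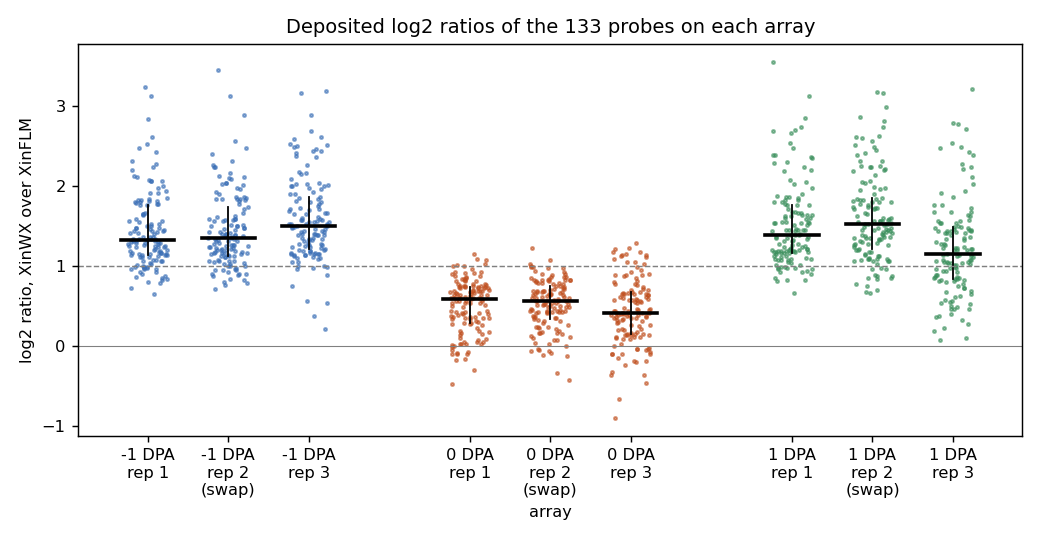
Log2 ratio of XinWX over XinFLM (vertical axis) for the 133 probes on each of the 9 arrays (horizontal axis), 1 point a probe, with the median as a thick bar and the quartiles as a thin line. The dashed line marks the limit of 1. The array medians are 1.15 to 1.52 at -1 and 1 DPA and 0.41 to 0.59 at 0 DPA.

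28K_157_E12 had the highest ratio over the outer stages and the largest gap to 0 DPA. XinWX exceeded XinFLM in it by 3.24, 3.45 and 3.19 in log2 on the arrays of -1 DPA, by 0.09, 0.50 and 0.14 at 0 DPA, and by 3.12, 3.18 and 2.39 at 1 DPA. The stage means were 3.29 ± 0.14, 0.25 ± 0.22 and 2.90 ± 0.44 (SD, n = 3), or 9.79-fold, 1.19-fold and 7.45-fold, and the 0 DPA arrays lay far below the rest. The lines met at anthesis from opposite sides. The log2 intensity in XinWX went from 14.30 at -1 DPA to 12.68 at 0 DPA and 11.40 at 1 DPA, while in XinFLM it went from 11.05 up to 12.44 and then down to 9.07. At 1 DPA XinFLM was under 400 units on 2 of 3 arrays, at 262 and 74 units, so that the ratio there rests on faint spots.

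28K_167_F05 came next in both respects. Its ratios were 3.13, 3.13 and 2.04 at -1 DPA, 0.02, 0.44 and -0.02 at 0 DPA, and 3.55, 3.17 and 1.42 at 1 DPA. All 3 arrays of 0 DPA lay below the other 6, the ranges at -1 and 1 DPA overlapped, and replicate 3 was the lowest array at each stage. Here XinWX made most of the movement, with a log2 intensity of 13.18 at -1 DPA, 10.85 at 0 DPA and 12.30 at 1 DPA. XinFLM stayed between stage means of 9.78 and 10.71.

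A further 3 probes, picked after their values had been seen, show how differently the same course of the ratio can come about. In 28K_198_E06 the ratio was 1.81, 1.90 and 1.90 at -1 DPA, 0.67, 0.76 and 0.41 at 0 DPA, and 2.85, 2.39 and 2.79 at 1 DPA. XinWX differed little between the stage means, at 13.65, 13.70 and 13.14, whereas XinFLM was at 11.80, 13.09 and 10.58, highest at anthesis. 28K_297_E08 had ratios of 0.98, 1.00 and 1.26 at -1 DPA, -0.16, 0.10 and 0.26 at 0 DPA, and 1.83, 2.06 and 0.37 at 1 DPA. In this probe both lines were low at 0 DPA, XinWX at 9.66 between 11.89 and 11.23, and XinFLM at 9.61 between 10.84 and 9.94. Replicate 3 of 1 DPA was the exception, with XinFLM at 10.53 and little difference between the lines. The higher XinFLM mean at 1 DPA than at 0 DPA rests largely on this array.

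In 28K_240_F05 the level went down in both lines. Its ratios were 1.53, 1.23 and 1.10 at -1 DPA, 0.03, 0.08 and 0.46 at 0 DPA, and 2.54, 2.49 and 1.44 at 1 DPA. XinWX stood at 11.52, 10.15 and 10.01 in the 3 stages and XinFLM at 10.28, 9.97 and 8.47. None of the 3 arrays of 1 DPA reached 400 units in XinFLM, and there XinWX was at least 1.67-fold higher.

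**Figure D2:**
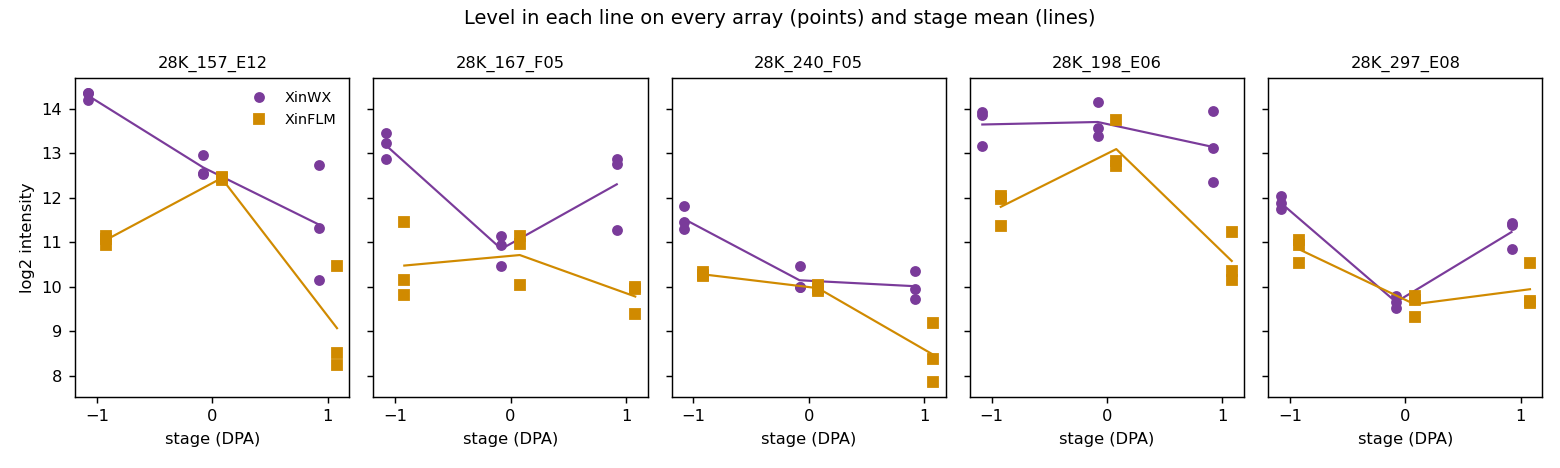
Log2 intensity (vertical axis) in XinWX (circles) and XinFLM (squares) at each stage in DPA (horizontal axis) for 5 of the probes, 1 point an array, with lines through the means of 3 arrays. In every panel the lines of the plot are closest at 0 DPA. Levels are comparable within a panel, not between panels.

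Across the 133 probes the loss of the difference at 0 DPA was shared between the lines, but not evenly. From -1 to 0 DPA the log2 intensity was lower in XinWX in 124 probes, with a median change of -0.70 over all 133, and higher in XinFLM in 96, with a median change of 0.21. It moved down in XinWX and up in XinFLM in 87 probes, down in both in 37 and up in both in 9. The larger of the 2 moves was in XinWX in 97 probes. From 0 to 1 DPA the order was reversed. XinFLM was lower in 120 probes, with a median change of -0.73, and XinWX higher in 81, with a median change of 0.15, and the larger move was in XinFLM in 96 probes. In 64 of the 133 probes both held, and in those the gap closed mainly through XinWX and opened again mainly through XinFLM. Where 1 line moves more than the other, the mean of both can move too. In that mean, stage and hybridization cannot be told apart. Without replicate 3 of 1 DPA the median changes from 0 to 1 DPA were -0.64 in XinFLM and 0.24 in XinWX, and the larger move was in XinFLM in 82 probes. Over all 18150 probes the median change was within 0.02 of 0 at every step in either line, where the normalization holds it. In ovules with fibers attached, fewer cells of a type and less RNA per cell cannot be told apart.

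On single arrays, XinWX at 0 DPA was below all 3 arrays of -1 DPA in 80 probes, against 11.0% of all 18150. XinFLM at 0 DPA was above all 3 arrays of -1 DPA in 38 probes, against 13.5%. XinFLM at 1 DPA was below all arrays of 0 DPA in 78 probes, against 13.2%. XinWX at 1 DPA was above all arrays of 0 DPA in 14 probes, against 9.13%. The change within a line contains the ratio that chose the probes, and these counts are therefore a description.

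**Figure D3:**
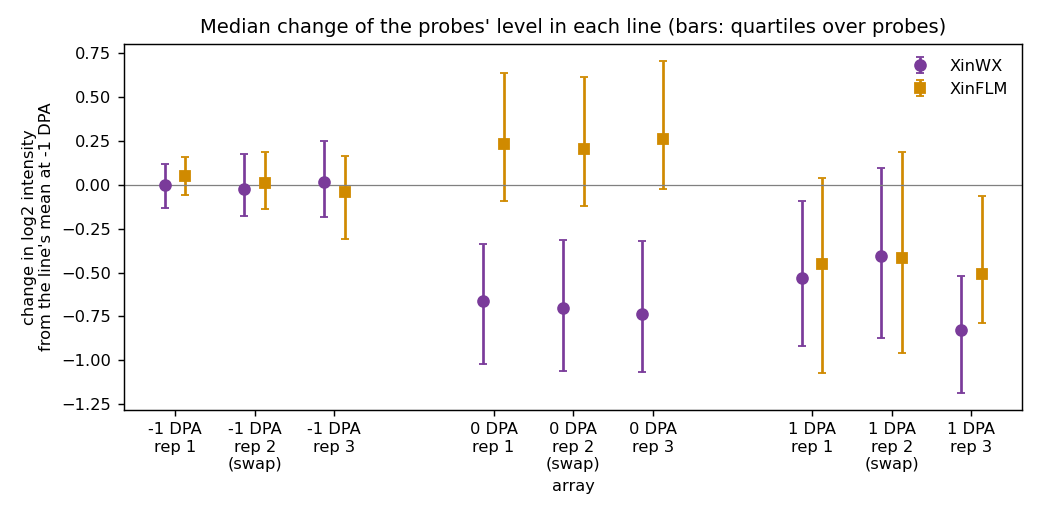
Change in log2 intensity from the mean of the same line at -1 DPA (vertical axis) on each array (horizontal axis), as the median (points) and quartiles (bars) over the 133 probes. At 0 DPA XinWX lies at -0.66 to -0.74 and XinFLM at 0.20 to 0.26, and at 1 DPA both lie below 0, at -0.41 to -0.83 in XinWX and -0.42 to -0.51 in XinFLM.

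The mean log2 intensity of both lines on an array, in which the ratio cancels, was tested in limma with p-values adjusted over all 18150 probes. This mean did not itself choose the probes, but the choice was not free of signal level. The minimum of 400 units had to be met in only 1 channel, and 88 of the 133 probes met it in both on every array. A low XinFLM value at 1 DPA both raises the ratio that chose the probes and lowers this mean. The comparison with all probes may therefore depend in part on the choice. From -1 to 1 DPA this mean fell in 26 of the 133 probes (19.5%) at an FDR under 0.05, against 3.30% of all probes, and rose in 0, against 2.63%. At an unadjusted p under 0.05 it was lower in 62 and higher in 1, against 12.5% and 11.2% of all probes. Each array counted as a sample in these tests, and with replicates 1 and 2 averaged 0 of the 133 passed the FDR. With all arrays the median change was -0.58 over the 133 probes, with a median SE of 0.28, and the estimate was below 0 in 111. Over all probes it was 0.01, a median that the normalization itself holds near 0. The array medians at 1 DPA were -0.52, -0.38 and -0.67 relative to -1 DPA. In the 26 probes that fell, the decrease ran from 0.85 to 2.44 in log2 with a median of 1.18. It was present in both lines in each of them, and all 3 arrays of 1 DPA were below all 3 of -1 DPA. Their median ratio was alike at -1 and 1 DPA, at 1.43 and 1.44, so that the fall in both lines adds little. Nor does the separation of the arrays, which passing the test nearly requires. Such a separation was found in 58 of the 133 probes, against 12.9% of all probes, and the opposite one in 1, against 11.7%. Without replicate 3 of 1 DPA the median change was -0.48 in the 133 probes and 0.01 in all, 65 probes were lower on both other arrays of 1 DPA than on any of -1 DPA, against 23.8% of all probes, and 14 were higher, against 23.5%.

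28K_157_E12 decreased the most, by 2.44 ± 0.44 (SE), or 5.44-fold (limma, adjusted p = 0.00854), and 28K_240_F05 by 1.66 ± 0.26, or 3.16-fold (limma, adjusted p = 0.00462). Without replicate 3 of 1 DPA the decrease was 3.12, or 8.71-fold, in 28K_157_E12 and 1.93, or 3.80-fold, in 28K_240_F05, and without replicate 2 it was 1.92, or 3.79-fold, in the former. In 28K_240_F05 the XinFLM part of this mean at 1 DPA comes from spots under 400 units. In 28K_157_E12 it does so on replicates 1 and 2, the arrays of 1 DPA that remain without replicate 3. For 28K_167_F05 the estimate was -0.79 ± 0.33 and did not pass (limma, adjusted p = 0.173). The estimates of 28K_198_E06 and 28K_297_E08 were -0.86 and -0.78 and did not pass either (limma, adjusted p = 0.165 and 0.0593). Without replicate 3 of 1 DPA they were -1.23 and -0.83 and passed (limma, adjusted p = 0.0223 and 0.0283). Those fits rest at 1 DPA on replicates 1 and 2, which may share their RNA, so that their p-values may be too small.

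The number of probes called depended on single arrays, both among the 133 and over all probes, of which 5.93% were called in either direction with all arrays. Without replicate 1, 2 or 3 of -1 DPA it was 6, 7 or 13 of the 133, against 1.18%, 2.04% or 4.31% of all probes. Without replicate 1, 2 or 3 of 0 DPA it was 14, 18 or 26, against 3.61%, 3.92% or 5.23%. Without replicate 1 or 2 of 1 DPA it was 7 or 11, against 2.51% or 2.78%. Without replicate 3 of 1 DPA, the array that stands apart, it was 42 (31.6%), of which 39 were lower and 3 higher, against 18.7% of all probes. That stage then rests on replicates 1 and 2, which may share their RNA, so that the spread there may be technical only. With replicates 1 and 2 averaged to 1 sample, 0 of the 133 and 2 of all 18150 passed in limma (lowest adjusted p of the 133 = 0.107), and 44 were lower at an unadjusted p under 0.05 (33.1%), against 6.53% of all probes. In 18 probes no array of 1 DPA reached 400 units in XinFLM, and 6 of them were among the 26. Of the 88 probes with 400 units in both channels on every array 14 fell. The share of all probes that fell under this same minimum was not counted, so that the 14 are read no further.

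**Figure D4:**
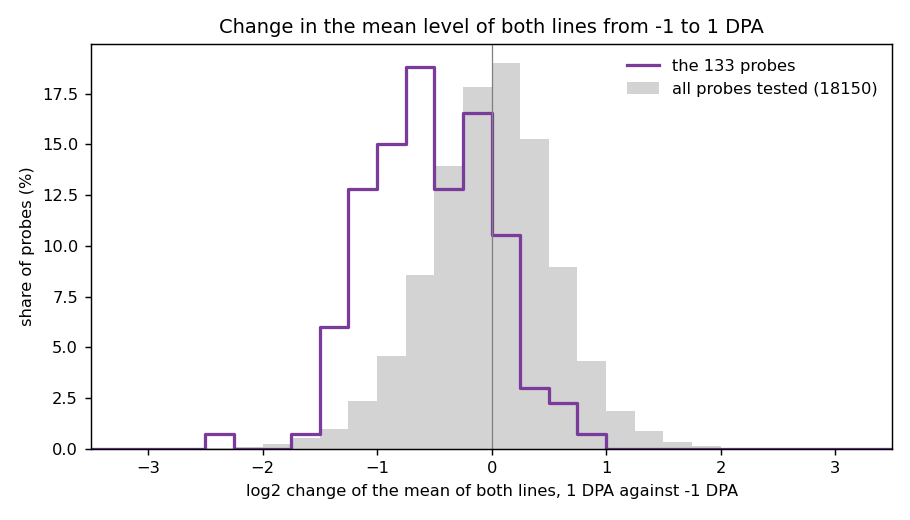
Share of probes in percent (vertical axis) by log2 change of the mean of both lines from -1 to 1 DPA (horizontal axis), for the 133 probes (outline) and all 18150 tested (filled). The median is -0.58 for the 133 probes and 0.01 for all.

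In the mean of both lines at 0 DPA, compared with the average of -1 and 1 DPA, 0 of the 133 probes passed in limma (lowest adjusted p = 0.0592), as did only 2 of all 18150 (0.0110% higher and 0% lower). At an unadjusted p under 0.05, 13 probes were higher and 7 lower, against 4.77% and 3.72% of all probes. The median was 0.04, with quartiles of -0.22 and 0.27. The highest estimates were 1.11 in 28K_198_E06 and in 28K_157_E12, and the lowest was -1.34 in 28K_297_E08, at the adjusted p just given. Without replicate 3 of 1 DPA 6 of the 133 probes (4.51%) passed, 5 higher and 1 lower, against 1.02% of all probes. The named ones were then at 1.29 in 28K_198_E06, 1.45 in 28K_157_E12 and -1.32 in 28K_297_E08 and passed (limma, adjusted p = 0.0417, 0.0144 and 0.0144). At 1 DPA these fits, too, rest on replicates 1 and 2, which may share their RNA.

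The 28 probes that kept the 2-fold difference at all 3 stages are set beside the 133 here. Their median change from -1 to 0 DPA was 0.04 in XinWX and 0.46 in XinFLM, beside -0.70 and 0.21 in the 133 probes. From 0 to 1 DPA it was -0.53 and -0.58, beside 0.15 and -0.73. Because the ratio divides these sets, the difference was not tested. In the mean of both lines the median change from -1 to 1 DPA was -0.43 in the 28 and -0.58 in the 133. At an FDR under 0.05, 3 of the 28 fell and 1 rose, beside 26 and 0 of the 133. Of all 18150 probes 3.30% fell and 2.63% rose.

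The XinFLM signal stayed under 400 units on each of the 3 arrays in 3 probes at -1 DPA, in 0 at 0 DPA and in 18 at 1 DPA. There only a lower bound of the difference could be given, which was 1.94-fold to 3.17-fold at -1 DPA and 1.07-fold to 4.21-fold at 1 DPA. XinWX was at or over 400 units on every array. The 133 probes came from 96 clone plates, at most 4 from one, and were spread over 44 of the 48 printed blocks of the array.

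The 3 probes left out carry gene names from the study and have the same course on the arrays. 28K_167_D03, a cystathionine gamma-synthase, the enzyme that commits cysteine to methionine synthesis in plants, had mean ratios of 1.45, 0.49 and 1.42 at -1, 0 and 1 DPA. 28K_086_B03 and 28K_236_A10 belong to the GH3 family, whose members in Arabidopsis conjugate jasmonate or auxin to amino acids, and had 1.66, 0.69 and 1.42, and 1.12, 0.48 and 1.16. In 28K_236_A10 the arrays of 1 DPA were far apart at 0.91, 2.21 and 0.35, and none of them reached 400 units in XinFLM.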

How the data were processed

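RNA of both lines at 1 stage was hybridized to each of 9 dual-dye cDNA arrays. The deposited scanner output gives, for both channels, spot intensity and local background before any normalization. The authors' normalized log2 ratios (Cy5 over Cy3) form a separate deposited table, and the submitters' notes name limma 3.4.5 and R 2.12.2. These ratios correlated with log ratios from the scanner intensities at r = 0.991 to 0.999 per array. Ratios printed for single probes are the deposited ones, turned to XinWX over XinFLM. Of 29184 probe spots 1 pair of the same probe was averaged, and 816 control or empty spots were left out. For 4 of the 18150 probes a deposited ratio was absent on an array.

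Levels came from the intensities in limma 3.58.1 under R 4.3.3, with normexp (offset 50), loess within arrays (span 0.3, 4 iterations, spots under 400 units in both channels at weight 0) and Aquantile between arrays. The offset draws faint signals together, so that the difference of the levels can be under the deposited ratio. The mean of both channels was fitted with 1 coefficient a stage, with eBayes and Benjamini-Hochberg adjustment over 18150 probes, and the fit was tested on simulated data. Replicates 1 and 2, the closest pair in the ratios at every stage, may share their RNA, so they were also averaged. Lower bounds compare the XinWX mean with the higher of the faint probe's own value and the lowest value of probes with 400 units, per array. The array number limits the precision.

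The probes, and the rules for naming them, were chosen with earlier results of these data known. Named by rule were those with the highest ratio over the outer stages and the largest gap to 0 DPA, and for the changes at 0 DPA those past the test, of which there were 0. Alternatives covered background correction, normalization, signal and ratio limits, thresholds, the replicate block, averaged replicates and leaving out each array. Figures were drawn with matplotlib.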

Additional observations from a re-analysis of the deposited data

How the results depend on the processing

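By the same rule, ratios scaled between arrays after normexp and loess gave 58 probes in place of 133, 400 units in both channels gave 88, a ratio limit of 0.8 gave 220 and one of 1.2 gave 76. Ratios from the scanner intensities gave 107 (104 shared) with normexp and 128 (127 shared) with plain subtraction, and leaving out single arrays gave 116 to 153. The number of probes changed in the mean of both lines from -1 to 1 DPA was 26, beside 5.93% of all probes. It was 0 with replicates 1 and 2 averaged (0.0110% of all probes), 41 with replicates 2 and 3 averaged (14.3% of all), 4 at an FDR under 0.01 (1.12%), 12 with no signal minimum (2.52% of 29183) and 6 to 42 without single arrays. It was 24 to 35 under the other settings (plain subtraction, quantile, median centring, median within arrays and an added 2-fold limit). Of all probes 4.90% to 6.74% were called there. For 0 DPA against the outer stages 1 probe was called with replicates 2 and 3 averaged (7 of all 18150), 0 to 6 without single arrays, and 0 under the other settings. Same-numbered arrays of different stages deviated together by r = -0.04 to 0.41 across probes, and differently numbered ones by r = -0.38 to 0.36. The highest value was between replicates 3 of -1 and 0 DPA, and these values do not settle whether the numbers pair the arrays. A fit with the replicate block called 25 and 0 of the 133 probes in the 2 comparisons, against 6.59% and 0.00551% of all.

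The calls of 28K_157_E12 and 28K_240_F05 were lost with replicates 1 and 2 averaged, at -2.09 and -1.50 (limma, adjusted p over the alternatives 6.74e-05 to 0.171 and 0.000664 to 0.137). Under the alternatives run, no direction turned in the changes from -1 to 1 DPA printed for the 5 named probes or in the estimates at 0 DPA printed for 3 of them. The estimate of 28K_297_E08 at 0 DPA also passed with replicates 2 and 3 averaged, at -1.32. Both lines share each array, so that stage and hybridization cannot be told apart in the mean of both lines.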
